A study of Mus musculus with 8 samples.

Results

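Axon guidance ligands and receptors were examined in LB-22, an immortalized cell line of mouse embryonic kidney origin, given either Wt1 siRNA or a scrambled siRNA. The members were all probe sets whose single annotated gene symbol belongs to the semaphorins of classes 3 to 7, the plexins A to D, the neuropilins, the Eph receptors, the ephrins, the Slits, the Robos, netrins 1 to 4 or the Unc5 receptors. This gave 147 probe sets for 66 genes, among 45101 probe sets on the array and 18193 named genes. Of these genes, 34 encode ligands and 32 receptors. The rule used symbols only and no measured value. The members were, however, chosen with earlier results of these data known.

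Both groups were expanded at 33 °C with 10 U/ml interferon gamma, transfected for 6 h with 25 pmol siRNA, and kept at 37 °C without interferon for 48 h before total RNA was taken. Each group had 4 samples, each on 1 Affymetrix Mouse 430_2 array. All samples come from 1 line. The labels leave unsaid whether replicates were separate cultures, and each p-value therefore reflects the spread among these 8 samples alone, possibly a technical one. Values are MAS5 signals on a linear scale, and differences are log2, Wt1 siRNA minus control siRNA, tested with limma with Benjamini-Hochberg adjustment over 22518 probe sets. These are the brighter 0.5 of all probe sets by mean signal, and the dimmest of them has a mean signal of 291.1. Called means an adjusted p under 0.05.

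Guidance cues steer migrating cells and growing axons by attraction or repulsion. Secreted class 3 semaphorins bind neuropilins, which pass the signal on through plexins, whereas most membrane semaphorins bind plexins directly. Ephrins are anchored in the membrane and signal in both directions with Eph receptor tyrosine kinases, Slits bind Robos, and netrins bind Dcc, neogenin and Unc5 receptors. Many of these genes also act in the kidney, where Slit2 acting through Robo2 limits the site of ureteric bud outgrowth, and in blood vessels.

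Wt1, the siRNA target and a zinc finger transcription factor of kidney and mesothelium, had signals of 8396.8, 7129.4, 8197.2 and 7423.0 on the control arrays, in replicate order, and 1679.3, 1531.0, 1316.8 and 1913.9 after Wt1 siRNA. No array of one group reached the other, and the Wt1 siRNA arrays held 20.5% of the control level (log2 -2.28 ± 0.11, SE; limma adjusted p = 9.17e-07). Correlations of log2 signal over the tested probe sets were 0.966 to 0.985 within groups and 0.937 to 0.967 between them. Of the kidney mesenchyme markers, Wt1, Osr1, Tbx18, Hoxa11, Tcf21 and Meis1 lay above the highest signal of the Bacillus control probe sets, 227.2, on all 8 arrays, and Foxd1 on none. The summed signal of the list was 12310 to 13794 on control arrays and 6163 to 6825 on Wt1 siRNA arrays. That sum includes the siRNA target Wt1 itself (mean signal 7786.6 to 1610.2), which makes up most of its fall. Besides Wt1, Tbx18 was called lower (mean signal 1622.5 to 873.4; limma adjusted p = 0.00077) and Osr1 higher (994.4 to 1622.8; 0.0137). Guidance genes are also used by endothelium, neurons and leukocytes. Of 10 endothelial markers 2 (Kdr and Cd34) lay above that signal on all 8 arrays, and Pecam1, Tek, Tie1, Vwf and Erg on none. Kdr (limma adjusted p = 0.0122) and Cd34 (0.0155), the 2 that could be tested, were both called lower. The summed signal of the endothelial list was 5122 to 5794 on control arrays and 3874 to 4119 on Wt1 siRNA arrays. Most of it came from Kdr (mean signal 1995.1 to 1451.7) and Cd34 (2515.7 to 1817.7). Of 9 matched neuronal and glial markers 3 were above on all 8 arrays (Snap25 and S100b on none), with sums of 4149 to 4714 and 3928 to 4358. Of 9 matched leukocyte markers 3 were above on all 8 arrays (Ptprc and Itgam on none), with sums of 4036 to 4555 and 4132 to 4712. Within that list Cd68 was called higher (mean signal 1090.5 to 2163.8; limma adjusted p = 5.16e-05), and Csf1r (1337.5 to 785.2; 0.00402) and Adgre1 (585.2 to 324.0; 0.0244) lower. All 4 mesothelium markers were above on all 8 arrays, with 3 called lower and sums of 45116 to 51360 and 22626 to 26954. Podocyte markers (3 matched, 2 called lower) summed to 2767 to 5862 and 1306 to 1837, and ureteric bud and tubule markers (7 matched, 2 lower and 1 higher) to 3017 to 5931 and 2445 to 3118. In the latter list Epcam fell (mean signal 2246.4 to 494.5; limma adjusted p = 0.00137), as did Gata3 (923.5 to 574.0; 0.0496). Cdh1 rose (414.5 to 794.4; 0.00352). The part of these cell types in the results was not tested, and in bulk RNA fewer cells of a type and less RNA per cell cannot be told apart.

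More guidance probe sets fell than rose after Wt1 siRNA. Of the 147 member probe sets 68 were tested, covering 39 genes, and 30 were called: 21 lower (14 genes) and 9 higher (9 genes), with no gene called in both directions. The background over all tested probe sets was 23.1% called, 12.3% lower and 10.8% higher, against 44.1%, 30.9% and 13.2% of the tested members. By gene, 23 of the 39 tested genes had a called probe set, beside 33% of all named genes tested. The member shares were not tested against these backgrounds. The median log2 difference was -0.10 over the tested members and -0.01 over all tested probe sets. Among the calls 6 probe sets fell at least 2-fold (Slit3, Sema3d, Ntn4, Sema4g and a pair of Epha7 probe sets), where the background was 1.94%, and 0 rose at least 2-fold (background 0.591%). The groups did not overlap for 26 of the 68 tested members, beside 27% of all tested probe sets. The count of 9 higher members was 4 without Wt1 siRNA replicate 3 or control replicate 4 and 5 without control replicate 2.

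Centring each array on its median raised the median difference by 0.108 and called 2459 probe sets higher and 1369 lower, against 2430 and 2764 as deposited. The members then gave 9 higher and 14 lower. Each of the 12 families had at least 1 called probe set, and the class 3 semaphorins held the most, 6 of 12 tested.

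**Figure D1:**
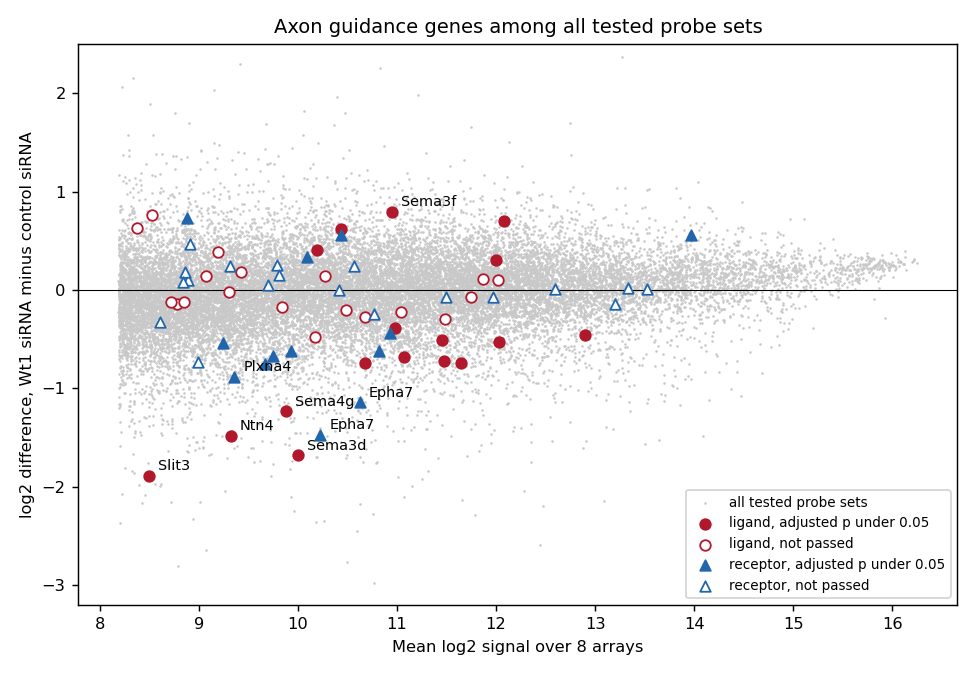
Mean log2 signal over the 8 arrays (horizontal axis) against the log2 difference, Wt1 siRNA minus control siRNA (vertical axis), for all 22518 tested probe sets (grey) and the 68 tested members, with ligands as red circles and receptors as blue triangles, filled where the limma adjusted p was under 0.05. The labelled points are the called members with the largest absolute differences, from Slit3 at -1.89 to Sema3f at 0.80.

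Promoters are shown for the called members that held a fixed WT1 or EGR type motif, since Wt1 was the siRNA target and WT1 and EGR zinc fingers bind related G-rich letters. RefSeq promoters (GRCm38.p6) matched 57 of the 66 genes. The 250 bases before each start were searched on both strands for GCGTGGGAG, GCGTGGGCG and GCGGGGGCG. At least 1 of these stood in 3.44% of all 32851 promoters and in 8 of 73 member promoters (11%). These were 2 of 15 promoters of genes that fell (Slit2 and Sema4g), 2 of 10 of genes that rose (Plxna2 and Plxnb2), 1 of 19 of tested genes that did not pass (Efna3), and those of the untested Epha1, Epha8 and Sema5a. GCGTGGGAG was in none of the member promoters and in 0.405% of all promoters. The 4 promoters are written 5′ to 3′ on the gene's strand and end at the base before the start site. Capitals mark the motif. Of the motifs, the first was searched as WT1 type and the other 2 as EGR type, so all matches printed carry the EGR label. These labels do not say which of the proteins could bind a match.
Slit2, chr5:47982905-47983154, plus strand: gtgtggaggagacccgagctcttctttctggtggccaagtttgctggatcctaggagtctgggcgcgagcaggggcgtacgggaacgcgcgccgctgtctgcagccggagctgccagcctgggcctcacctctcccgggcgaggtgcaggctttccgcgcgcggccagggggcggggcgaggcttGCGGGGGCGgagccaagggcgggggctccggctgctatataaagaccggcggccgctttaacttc
Sema4g, chr19:44989094-44989343, plus strand: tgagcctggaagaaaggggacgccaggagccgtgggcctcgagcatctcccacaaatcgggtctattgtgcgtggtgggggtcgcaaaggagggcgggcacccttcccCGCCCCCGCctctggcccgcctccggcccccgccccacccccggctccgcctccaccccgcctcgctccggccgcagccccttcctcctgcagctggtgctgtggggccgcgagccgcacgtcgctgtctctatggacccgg
Plxna2, chr1:194619579-194619828, plus strand: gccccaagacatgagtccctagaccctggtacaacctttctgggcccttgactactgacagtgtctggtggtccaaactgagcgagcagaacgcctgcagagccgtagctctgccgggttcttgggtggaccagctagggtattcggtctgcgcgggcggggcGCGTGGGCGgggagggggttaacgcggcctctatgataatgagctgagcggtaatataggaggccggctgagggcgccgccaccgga
Plxnb2, chr15:89180789-89181038, minus strand: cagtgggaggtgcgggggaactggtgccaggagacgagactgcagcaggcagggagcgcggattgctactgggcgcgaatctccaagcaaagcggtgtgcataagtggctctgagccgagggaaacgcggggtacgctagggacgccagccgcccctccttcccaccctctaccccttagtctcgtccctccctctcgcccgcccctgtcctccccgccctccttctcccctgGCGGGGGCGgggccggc
The match began 65 bases before the start in Slit2, 142 in Sema4g (on the opposite strand), 87 in Plxna2 and 17 in Plxnb2, whose other listed promoter held no match. Slit2 and Sema4g fell while Plxna2 and Plxnb2 rose, so the letters stood before genes called in both directions. These matches are descriptions of sequence, and binding was not measured. The member share was not tested against that of all promoters, and base composition was not matched between them.

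Class 3 semaphorins, the secreted ligands of neuropilin and plexin complexes, were called lower more often than higher. Of 12 tested probe sets for 5 genes, 5 fell (Sema3c, Sema3d and Sema3e), 1 rose (Sema3f) and 6 did not pass. Sema3d fell the furthest among them. Its signals were 1669.7, 1960.4, 1830.3 and 1892.1 on the control arrays and 529.4, 548.6, 722.1 and 510.3 after Wt1 siRNA, in replicate order here and throughout. Every Wt1 siRNA array lay under every control array, at 31.2% of control (log2 -1.68 ± 0.14; limma adjusted p = 1.3e-05; two-sided exact permutation p = 0.0286, the lowest possible with 4 arrays a group). A dimmer Sema3d probe set, too dim to be tested, read 437.8, 491.0, 244.2 and 448.4 on control arrays and 32.2, 118.7, 108.2 and 51.2 on Wt1 siRNA arrays, all 4 of the latter under the highest Bacillus control signal (adjusted p = 0.00544 by limma with no filter).

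Sema3e encodes a ligand that can bind Plexin-D1 without a neuropilin. It had 4 tested probe sets, all lower and 3 called. The tightest read 2121.5, 2193.9, 2024.4 and 2132.8 on control arrays and 1192.3, 1303.1, 1369.2 and 1218.6 on Wt1 siRNA arrays. All 4 Wt1 siRNA arrays were lower than all controls, at 59.9% (log2 -0.74 ± 0.09; limma adjusted p = 0.000246). The other called probe sets were at -0.53 ± 0.14 and -0.68 ± 0.18, each with overlapping groups because control array 3 was low (3630.3 and 1783.2). The call at -0.53 was lost without control replicate 2 (adjusted p = 0.0534) or 4 (0.0525) and under median centring of arrays (0.0533). The call at -0.68 was lost without Wt1 siRNA replicate 1 (0.0594), control replicate 1 (0.0569) or control replicate 2 (0.0604). The probe set that did not pass was at -0.48 ± 0.21.

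Sema3c, whose product takes part in cardiac outflow tract and vascular development, read 8628.6, 9125.8, 9345.6 and 8568.2 on control arrays and 6956.2, 6219.8, 6726.7 and 6096.9 on Wt1 siRNA arrays. Control arrays were all higher, and Sema3c was at 72.8% of control (log2 -0.46 ± 0.07; limma adjusted p = 0.000886), but not called under median centring of arrays (-0.35, adjusted p = 0.0999). Its other tested probe set was at -0.23 ± 0.14 and did not pass. Sema3a, the founding member and a repellent of neuropilin-1 axons, had tested differences of -0.08 ± 0.11 and 0.11 ± 0.12, and neither passed.

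Sema3f, a neuropilin-2 ligand, was the one class 3 gene with a rise, and its probe sets disagreed. The called probe set read 2083.0, 1434.7, 1140.2 and 1476.3 on control arrays and 2817.7, 2453.1, 2200.3 and 3013.3 on Wt1 siRNA arrays. All Wt1 siRNA arrays were above all control arrays, 1.74-fold (log2 0.80 ± 0.17; limma adjusted p = 0.00564). The others were at 0.39 ± 0.17 and, on the brightest probe set of the gene, at -0.30 ± 0.24, and neither passed. The mean over all 3 was 0.30 and did not pass (adjusted p = 0.158). Sema3b and Sema3g had no tested probe set.

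Membrane-bound and other semaphorins of classes 4 to 7 went both ways. Of 7 tested probe sets, 2 fell, 1 rose and 4 did not pass, and 23 further probe sets were too dim to be tested. Sema4g read 1272.8, 1721.9, 1393.6 and 1418.9 on control arrays and 685.3, 588.7, 459.6 and 760.9 on Wt1 siRNA arrays. It fell with no overlap to 42.5% of control (log2 -1.24 ± 0.17; limma adjusted p = 0.000432). Sema6c, a transmembrane semaphorin, read 3609.3, 3406.4, 3494.7 and 4128.5 on control arrays and 2475.2, 1986.5, 1648.1 and 2916.1 on Wt1 siRNA arrays. These groups also did not overlap, at 60.4% of control (log2 -0.73 ± 0.15; limma adjusted p = 0.00576). Its dimmer probe sets, which were not tested, were at 0.60 and 0.17, so that the mean over all 3 was 0.01 (adjusted p = 0.981).

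Sema4c, a plexin-B2 ligand, rose. Its signals were 1079.2, 987.5, 979.3 and 1023.8 on control arrays and 1254.7, 1432.7, 1472.5 and 1254.5 on Wt1 siRNA arrays, without overlap. The rise was 1.33-fold (log2 0.41 ± 0.11; limma adjusted p = 0.0217). The call was lost without Wt1 siRNA replicates 2 (adjusted p = 0.0673) or 3 (0.0659) and without control replicates 2 (0.0536) or 4 (0.0513), and with the replicate block (0.0571). Sema4b at -0.21 ± 0.15, the immune semaphorin gene Sema4d at 0.19 ± 0.19 and both Sema6d probe sets (0.63 ± 0.25 and -0.18 ± 0.13) did not pass.

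Receptors of the semaphorins were called in both directions. Of 11 tested plexin probe sets, 2 rose, 1 fell and 8 did not pass. Plxnb2, encoding a receptor for class 4 semaphorins, read 12928.9, 11741.1, 15016.0 and 13156.9 on control arrays and 19603.8, 19208.7, 18966.5 and 19810.6 on Wt1 siRNA arrays. The Wt1 siRNA arrays lay close together and above all controls, 1.47-fold (log2 0.56 ± 0.08; limma adjusted p = 0.000475). Plxna4, encoding a class 3 semaphorin coreceptor, read 926.5, 997.0, 852.0 and 794.4 on control arrays and 436.2, 412.4, 607.3 and 495.5 on Wt1 siRNA arrays. It fell without overlap to 54.2% of control (log2 -0.88 ± 0.17; limma adjusted p = 0.00296). An untested, dimmer Plxna4 probe set read 345.7 to 467.8 on control arrays and 78.4 to 254.0 on Wt1 siRNA arrays (adjusted p = 0.0203 by limma with no filter).

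Plxna2 rose 1.26-fold on 1 of its 3 tested probe sets, from 971 ± 39.1 to 1229 ± 63.0 (SD, n = 4 each; log2 0.34 ± 0.11; limma adjusted p = 0.0437). No fit with 7 arrays called it, with adjusted p of 0.0651 (without control replicate 3) to 0.0954 (without Wt1 siRNA replicate 1), and with the replicate block (0.0899). The others were at 0.24 ± 0.18 and 0.47 ± 0.20. Plxna1, Plxna3 and Plxnb1 had differences between -0.07 and 0.19 on 6 tested probe sets, and none passed. Plxnd1, the Sema3e receptor gene, was too dim to be tested. It read 258.0, 186.6, 251.3 and 242.5 on control arrays and 61.3, 100.9, 157.7 and 65.7 on Wt1 siRNA arrays. The groups did not overlap, but all Wt1 siRNA arrays lay under the highest Bacillus control signal and the difference did not pass with no filter (adjusted p = 0.0573).

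The neuropilin genes gave unlike counts. All 3 tested Nrp2 probe sets fell and none of 4 for Nrp1 passed. Nrp2 on its strongest call read 1275.2, 1087.1, 1012.6 and 870.8 on control arrays and 635.3, 627.1, 667.6 and 578.1 on Wt1 siRNA arrays. Again no array crossed over, at 59.6% of control (log2 -0.75 ± 0.15; limma adjusted p = 0.0038). The other called probe sets were at -0.62 ± 0.17 and -0.67 ± 0.17, again without overlap. The call at -0.62 was lost without Wt1 siRNA replicate 3 (adjusted p = 0.0520) or control replicates 2 (0.0539) or 4 (0.0633). The call at -0.67 was lost without control replicate 4 (0.0521) and with centred arrays (0.0565). Another, dim Nrp2 probe set was at -0.03, and the mean over all of them, -0.52, did not pass (0.0764). Nrp1, a receptor for Sema3a and a coreceptor for VEGF, read 11721 ± 754 on control arrays and 11865 ± 1396 on Wt1 siRNA arrays (SD, n = 4 each) on its brightest probe set, a difference of 0.01 ± 0.09. Its other differences were 0.01 ± 0.09, -0.08 ± 0.14 and 0.24 ± 0.11. The difference between the genes was not tested.

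**Figure D2:**
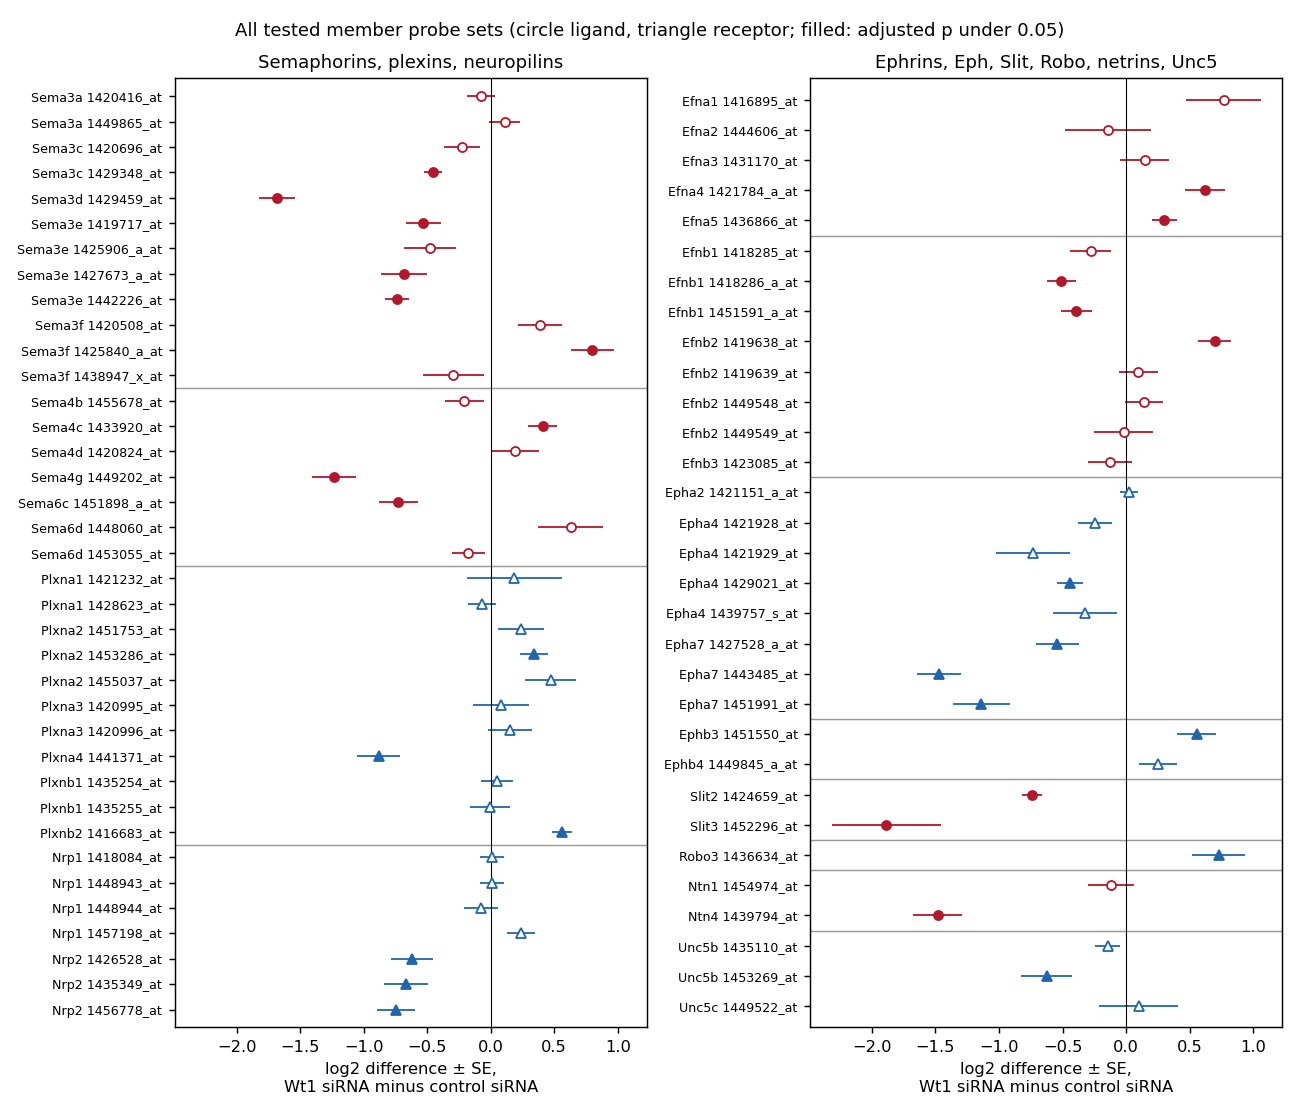
The log2 difference with its SE (horizontal axis), Wt1 siRNA minus control siRNA, for each of the 68 tested member probe sets, grouped by family with lines between families. Filled symbols passed the limma threshold, and the probe sets of Epha7 and Nrp2 were all called while those of Sema3f and Efnb2 lay on both sides of 0.

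Ephrins, the membrane-anchored ligands of Eph kinases, held 3 of the 9 rises. Of 5 tested ephrin-A probe sets, 2 rose and 3 did not pass. Of 8 for ephrin-B, 1 rose, 2 fell and 5 did not pass. Efna4 read 1399.2, 1126.5, 882.3 and 1112.3 on control arrays and 1603.4, 1909.5, 1428.2 and 1970.4 on Wt1 siRNA arrays. All Wt1 siRNA arrays were above all controls, 1.54-fold (log2 0.62 ± 0.16; limma adjusted p = 0.0146). Efna5 was 1.23-fold the control level (log2 0.30 ± 0.10; limma adjusted p = 0.0450), with overlapping groups. The Efna5 call was lost without any 1 of Wt1 siRNA replicates 1 (adjusted p = 0.0810), 3 (0.0711) or 4 (0.0898) or control replicates 1 (0.100), 2 (0.0996) or 4 (0.122). It was also lost with centring (0.0642), quantile normalization (0.0530), the replicate block (0.0696), no intensity trend (0.0847) and no filter (0.0817). Its other probe set, not tested, was at 0.01, and the mean over both, 0.15, did not pass (0.544).

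Efna1 had a tested probe set at 0.77 ± 0.30, which did not pass (limma adjusted p = 0.0844). Its dimmer probe set read 135.2, 118.4, 201.1 and 54.4 on control arrays and 379.4, 510.6, 413.3 and 454.0 on Wt1 siRNA arrays. All control arrays were under the highest Bacillus control signal and all Wt1 siRNA arrays above it, and with no filter the difference passed (adjusted p = 0.00812). Efna2 at -0.14 ± 0.34 and Efna3 at 0.15 ± 0.19 did not pass.

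Efnb2, the arterial ephrin that pairs with Ephb4, rose on 1 of 4 tested probe sets. That probe set read 3645.9, 2923.9, 3953.5 and 3172.1 on control arrays and 5858.1, 5992.1, 6071.6 and 4320.2 on Wt1 siRNA arrays. The groups did not overlap, 1.62-fold (log2 0.70 ± 0.13; limma adjusted p = 0.00244), with Wt1 siRNA array 4 below its group. The others were at 0.10 ± 0.15, 0.14 ± 0.15 and -0.02 ± 0.23, and the mean over all 4, 0.23, did not pass (adjusted p = 0.0895). Efnb1, mutated in craniofrontonasal syndrome, fell on 2 of 3 probe sets. The brightest read 3124.3, 3527.2, 3304.4 and 3490.7 on control arrays and 2457.4, 2403.3, 1902.8 and 2753.1 on Wt1 siRNA arrays. These did not overlap, at 70.2% of control (log2 -0.51 ± 0.11; limma adjusted p = 0.0068). With centred arrays it was at -0.40 and did not pass (adjusted p = 0.0521). The other call, at -0.39 ± 0.12, was lost without any 1 array except control replicate 3 and Wt1 siRNA replicate 4, with adjusted p of 0.0637 to 0.0948. It was lost with centring too (0.155). The remaining Efnb1 probe set was at -0.28 ± 0.16, and Efnb3 was at -0.13 ± 0.17.

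EphA receptor genes fell or did not pass. Of 8 tested probe sets for 3 genes, 4 fell (Epha4 and Epha7) and 4 did not pass. Epha7 was called on all 3 of its tested probe sets. The first read 1724.5, 1747.7, 2866.6 and 1814.6 on control arrays and 768.1, 603.9, 793.5 and 722.2 on Wt1 siRNA arrays. The groups were well apart, at 36.1% of control (log2 -1.47 ± 0.17; limma adjusted p = 0.000137), with control array 3 above the others. The second read 1706.3, 2180.3, 3927.1 and 2074.3 on control arrays and 1123.4, 908.2, 970.0 and 1300.3 on Wt1 siRNA arrays, at 45.4% of control (log2 -1.14 ± 0.22; adjusted p = 0.00355). The third, dimmer, was at -0.54 ± 0.17 (adjusted p = 0.0370), a call lost without Wt1 siRNA replicates 1 (0.101), 2 (0.0724) or 3 (0.0603) or control replicates 2 (0.102), 3 (0.0714) or 4 (0.0698). The replicate block (0.0503) ended it too, as did centring (0.139) and quantile normalization (0.0950). The remaining Epha7 probe set, not tested, was at -0.34, and the mean over all 4 was -0.87 and passed (0.00303).

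Epha4, which binds ephrins of both classes, fell on 1 of 4 tested probe sets. It read 2528.0, 2036.0, 2181.3 and 2373.4 on control arrays and 1807.6, 1642.4, 1740.5 and 1514.6 on Wt1 siRNA arrays, without overlap. The level was 73.6% of control (log2 -0.44 ± 0.10; limma adjusted p = 0.00972), and the call ended under median centring (-0.33, adjusted p = 0.140) and when its 5 probe sets were averaged (-0.58, 0.0741). The other tested differences were -0.24 ± 0.13, -0.73 ± 0.29 and -0.32 ± 0.25. Epha2, an epithelial and tumour-associated Eph receptor, read 10249 ± 745 on control arrays and 10376 ± 397 on Wt1 siRNA arrays (SD, n = 4 each), a difference of 0.02 ± 0.07 that did not pass.

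EphB receptors, which mainly bind ephrin-B ligands, had 2 tested probe sets. Ephb3 read 1180.3, 1403.9, 1203.6 and 846.3 on control arrays and 1574.2, 1535.2, 1655.0 and 1959.9 on Wt1 siRNA arrays. It rose without overlap, 1.47-fold (log2 0.55 ± 0.16; limma adjusted p = 0.0242). The call was lost without Wt1 siRNA replicates 3 (adjusted p = 0.0521) or 4 (0.0564) or control replicate 4 (0.0573), and with the replicate block (0.0544). Ephb4, the venous Eph receptor, was at 0.25 ± 0.15 and did not pass. Ephb1 and Ephb6 were too dim to be tested.

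**Figure D3:**
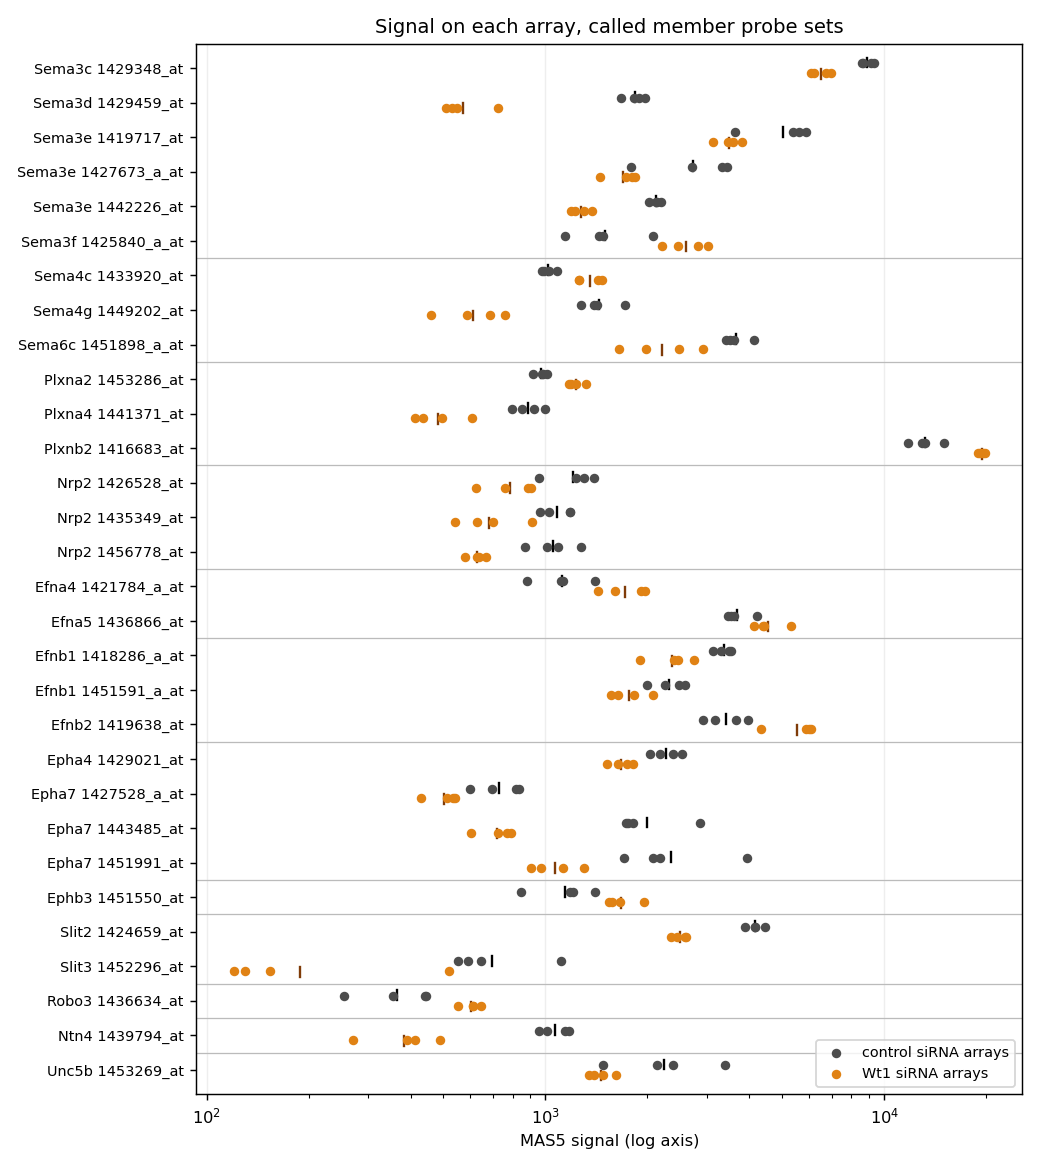
The MAS5 signal on each array (log axis) for the 30 called member probe sets, with control siRNA arrays in grey and Wt1 siRNA arrays in orange, short vertical lines at the geometric group means and horizontal lines between families. In 25 of the 30, picked by their adjusted p on these same arrays, the groups do not overlap. Slit3 shows 1 Wt1 siRNA array, at 518.5, apart from the other 3 at 120.3 to 154.1.

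Slit genes fell on both tested probe sets. Slit2, the repellent that acts with Robo2 in ureteric bud positioning and whose promoter is printed above, read 4434.4, 3889.2, 4165.6 and 4140.6 on control arrays and 2598.3, 2339.8, 2443.3 and 2578.5 on Wt1 siRNA arrays. The spread within each group was small, the groups did not overlap, and the level was 59.9% of control (log2 -0.74 ± 0.08; limma adjusted p = 6.72e-05). The dimmer Slit2 probe sets, not tested, were at -0.63 and -0.65. Slit3 was at -1.89 ± 0.43 (limma adjusted p = 0.00835), and its group mean after Wt1 siRNA was under the lowest mean signal tested. It read 550.7, 646.8, 1111.2 and 592.3 on control arrays and 120.3, 130.2, 154.1 and 518.5 on Wt1 siRNA arrays. The groups did not overlap, but only Wt1 siRNA array 4 lay above the highest Bacillus control signal, so the size of the fall rests on signals near background. With 64 added before the logarithm Slit3 was at -1.55 and Sema3d at -1.58, so no order between them is read. Slit1 was too dim to be tested.

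Robo receptors were mostly dim. Only Robo3 had a tested probe set, which read 443.9, 254.3, 439.7 and 355.5 on control arrays and 644.3, 553.0, 609.5 and 611.5 on Wt1 siRNA arrays. Robo3, a divergent Robo known from commissural axons, rose without overlap, 1.66-fold (log2 0.73 ± 0.21; limma adjusted p = 0.0258). The call was lost without Wt1 siRNA replicates 1 (adjusted p = 0.0695) or 3 (0.0593) or control replicates 2 (0.0597) or 4 (0.0609). The other Robo3 probe set, not tested, was at -0.35. Robo1 and Robo2 probe sets read at most 242.3 on any array, and no difference of theirs was tested.

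Netrins were represented by Ntn1 and Ntn4 among the tested probe sets. Ntn4 encodes a netrin that binds laminin in basement membranes. Its signals were 1009.6, 958.6, 1173.1 and 1144.9 on control arrays and 269.9, 490.0, 390.6 and 413.4 on Wt1 siRNA arrays. Every Wt1 siRNA array was under every control array, at 35.8% of control (log2 -1.48 ± 0.19; limma adjusted p = 0.000274). A dimmer Ntn4 probe set, whose 8 signals all lay under the highest Bacillus control signal, read 64.1 to 192.7 and 11.3 to 37.5, also without overlap. Ntn1, the classic netrin of the floor plate, read 440 ± 31.3 and 407 ± 58.1 (SD, n = 4 each) and did not pass at -0.12 ± 0.18.

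Unc5 receptors mediate repulsion by netrins. The brighter Unc5b probe set read 9930 ± 1046 on control arrays and 8984 ± 1030 on Wt1 siRNA arrays (SD, n = 4 each), a difference of -0.15 ± 0.10 that did not pass. The other Unc5b probe set read 3378.9, 2371.2, 1476.9 and 2128.9 on control arrays and 1478.6, 1347.3, 1387.6 and 1616.4 on Wt1 siRNA arrays. Those groups overlapped, and the call at -0.62 ± 0.20 (limma adjusted p = 0.0431) was lost without any 1 array except control replicate 3 and Wt1 siRNA replicate 4, with adjusted p of 0.0784 to 0.102. Unc5c was at 0.10 ± 0.31 and did not pass, and Unc5a and Unc5d were too dim. The other Unc5c probe set, not tested, read 62.7, 27.8, 147.3 and 115.1 on control arrays and 208.5, 147.9, 214.7 and 379.9 on Wt1 siRNA arrays. Its groups did not overlap, but 7 of the 8 signals lay under the highest Bacillus control signal, and the difference of 1.60 ± 0.56 did not pass with no filter (adjusted p = 0.106).

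Several genes rested on 1 of many probe sets. Of 16 member genes with more than 1 tested probe set, all were called for 2 (Epha7 and Nrp2), some for 8 (Sema3c, Sema3e, Sema3f, Plxna2, Efnb1, Efnb2, Epha4 and Unc5b) and none for 6. The remaining 13 called genes had a single tested probe set each. Among the 30 called probe sets, 18 kept their call with each array left out in turn. These are the calls of Sema3c, Sema3d, Sema3f, Sema4g, Sema6c, Plxna4, Plxnb2, Efna4, Efnb2, Epha4, Slit2, Slit3 and Ntn4 and, on some of their probe sets, Sema3e, Nrp2, Efnb1 and Epha7.

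Dim members were numerous. Of 79 untested member probe sets, which include every one of 27 genes, 0 lay above the highest Bacillus control signal on all 8 arrays and 37 lay above it on none. Testing all 45037 probe sets with no filter called 21 member probe sets lower and 7 higher, beside a background of 5.32% and 4.33% (9.65% in all). Of these calls 4 were among the untested probe sets, namely the dimmer probe sets of Sema3d, Efna1, Ntn4 and Plxna4 described above. The groups of 9 untested probe sets did not overlap, 7 lower and 2 higher (Efna1 and Unc5c), but the share over all untested probe sets was not computed. No excess is read from this count. Epha5, a receptor for ephrin-A ligands, had a probe set that read 314.8 to 366.0 on control arrays and 160.9 to 258.0 on Wt1 siRNA arrays. These did not overlap, and the difference of -0.74 ± 0.27 did not pass with no filter (adjusted p = 0.131). Of the tested members, 3 had a group mean under the lowest tested mean signal (Slit3, Efna1 and Sema6d), so that their place among the tested probe sets depended on the other group.

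Other genes of guidance signalling were taken from a list of 92 coreceptors and signal transducers, each by its brightest probe set. Of 69 tested, 18 fell, 9 rose and 42 did not pass, beside a background over named genes by their brightest probe set of 14.6% lower and 13.2% higher (27.8% in all). The list median was -0.03, and that of all tested genes was -0.00. Among 50 signal transducers 12 fell and 7 rose, and among 19 coreceptors and other guidance molecules 6 fell and 2 rose. The count of 9 rises was 4 without control replicate 2 and 5 without control replicate 4 or Wt1 siRNA replicates 1, 2 or 3.

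Gipc1, which encodes a PDZ protein that binds the neuropilin tail, showed the largest difference of the list. It read 4018.6, 3868.0, 3169.2 and 3657.5 on control arrays and 1599.4, 1473.4, 1267.7 and 1783.1 on Wt1 siRNA arrays. It fell without overlap to 41.5% of control (log2 -1.27 ± 0.12; limma adjusted p = 3e-05). Pak2, a kinase effector of Rac and Cdc42, read 4776.9 to 5828.8 on control arrays and 2081.9 to 2815.5 on Wt1 siRNA arrays, at 49.4% of control (-1.02 ± 0.11). Cdk5, a kinase in semaphorin signalling, fell to 52.2% (-0.94 ± 0.10), though the mean over its probe sets, -0.51, did not pass (adjusted p = 0.155). Limk1, which phosphorylates cofilin, fell to 56.3% (-0.83 ± 0.13).

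Srgap1, encoding a GTPase activating protein that binds Robo tails, fell to 54.0% of control (-0.89 ± 0.18). Sdc4, a heparan sulfate proteoglycan gene, fell to 56.7% (-0.82 ± 0.13). Flrt3, which encodes an Unc5 binding membrane protein, fell to 53.3% (-0.91 ± 0.25; limma adjusted p = 0.0216). The Flrt3 call was lost without Wt1 siRNA replicates 2 (adjusted p = 0.0600) or 3 (0.0541) or control replicates 1 (0.0607) or 4 (0.0583), while the mean over its probe sets was -1.53. The remaining falls were smaller than 0.8 in size. The largest was that of Neo1, the neogenin gene (-0.73 ± 0.10; limma adjusted p = 0.00046), whose mean over probe sets, -0.74, did not pass (0.0527). With centred arrays the calls of Met, Rgmb, Trio, Srgap2 and Dpysl3 were lost (limma adjusted p of 0.185 to 0.484).

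The 9 rises were all under 0.8 and were named after their values were seen. Sdc1 and Sdc3, like Sdc4 syndecan genes of heparan sulfate proteoglycans, rose by log2 0.58 ± 0.08 (limma adjusted p = 0.000398) and 0.41 ± 0.13 (0.0347). The Sdc3 call was lost without Wt1 siRNA replicates 1 (adjusted p = 0.0670), 2 (0.0964) or 3 (0.0837), without control replicates 2 (0.0610) or 3 (0.0537), and with the replicate block (0.0665). Cdk5r1, encoding an activator subunit of Cdk5, was at 0.66 ± 0.21 (limma adjusted p = 0.0415). Its call was lost whichever replicate was removed (0.0533 without Wt1 siRNA replicate 1 to 0.123 without replicate 2), and its control mean of 247 lay under the lowest tested mean signal. Src, a tyrosine kinase gene, rose by 0.65 ± 0.15 (0.00919), from 1997 ± 241 to 3172 ± 741 (SD, n = 4 each). Ablim1, an actin binding protein gene, rose by 0.55 ± 0.08 (0.000369), but the mean over its probe sets was 0.03 and did not pass (0.953). The remaining rises, of Rhoa, Plcg1, Vasp and Farp1, were between 0.22 and 0.30. The Farp1 call was lost without any 1 array except control replicate 3, with limma adjusted p of 0.0553 to 0.118. The mean over its probe sets was -0.35 and did not pass (0.551). The Plcg1 call was lost without any 1 array except control replicate 3 and Wt1 siRNA replicate 4 (0.0518 to 0.134). The Rhoa call was lost without control replicates 2 (0.0552) or 4 (0.0673), and its mean over probe sets, 0.11, did not pass (0.769).

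**Figure D4:**
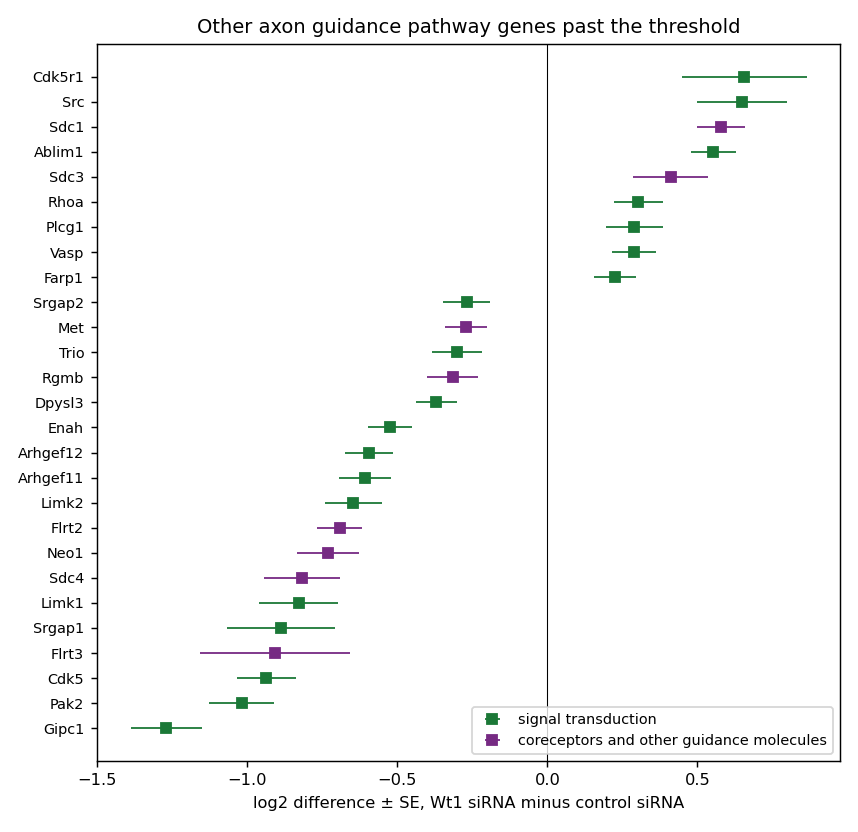
The log2 difference with its SE (horizontal axis), Wt1 siRNA minus control siRNA, for the 27 genes of the wider pathway list that passed the limma threshold, with signal transducers in green and coreceptors and other guidance molecules in purple. The values run from -1.27 for Gipc1 to 0.66 for Cdk5r1, with 18 below 0 and 9 above.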

How the data were processed

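Total RNA of 8 samples, 4 per group, was measured on Affymetrix arrays. Each probe set has 1 deposited intensity per array on a linear scale. The submitters' processing notes name MAS5 (version not given in the sources used here), which combines perfect match and mismatch probes. The authors' scaling gave all arrays the same mean of 1500 after leaving out 2% of probe sets at each end. Array medians were 279.1 to 346.1. The number of arrays limits the precision, and the median SD within groups was 0.191 (log2) for tested and 0.863 for untested probe sets. No 2 arrays shared more than 42 identical values.

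Symbols from the platform annotation were updated through Entrez gene IDs: 34945 probe sets had 1 symbol, 932 had several, 9160 were unnamed here and 64 array controls were left out. Signals were log2 transformed and fitted with limma 3.58.1 in R 4.3.3 (lmFit, eBayes with intensity trend, two-sided). The fit was tested on simulated data with 200 probe sets changed. It recovered 26% of changes of log2 0.5 and 72% of changes of log2 1, and 3 of its 101 calls were of unchanged probe sets. The real fit called 5194 probe sets, so its limit on unadjusted p was less strict than in the simulation. These recoveries therefore need not hold for the real fit. A difference that did not pass is still not shown to be absent. Errors after a log2 difference are SE and after a signal SD. Folds and percents of control are ratios of geometric means. Background was judged from 27 probe sets for Bacillus transcripts. Named genes were Wt1, every member gene with a call, the brightest member of each family by control signal and called pathway genes with an absolute log2 difference of at least 0.8, at most 10. Further members, the pathway rises and the smaller pathway falls were named after their values were seen. Members and lists were chosen with earlier results of these data known. The signal of one probe set does not rank its transcript against another.

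Alternatives were other normalizations, added constants, filters, variance models, gene summaries, the replicate block, a threshold of 0.01 and leaving out each array. Replicate numbers were checked as pairs. Figures used matplotlib 3.10.9.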

Additional observations from a re-analysis of the deposited data

Results flagged for a closer look

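Among 62 groups of 4 arrays, those of the called member probe sets and of Wt1, 3 held an array far from the others, by the gap to its nearest neighbour as a share of the group's log2 range. Chance alone gives about 1 in 20 groups. In the Wt1 siRNA group of Efnb2, array 4 read 4320.2 against 5858.1 to 6071.6 on the others (share 0.895). In the control group of Epha7, array 3 read 2866.6 against 1724.5 to 1814.6 (share 0.9). In the Wt1 siRNA group of Slit3, array 4 read 518.5 against 120.3 to 154.1 (share 0.831).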

How the results depend on the processing

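Of the 30 called member probe sets, 11 kept their call under every alternative in which they were tested, the stricter threshold of 0.01 left aside: those of Sema3d, Sema4g, Plxna4, Plxnb2, Efna4, Slit2, Slit3 and Ntn4, 1 of Sema3e and a pair of Epha7. The sign turned for Sema3f (-0.30 on its brightest probe set) and Sema6c (0.0114 as the mean over probe sets). Counted by gene, limma called 3395 genes, 10 members lower and 7 higher with the brightest probe set per gene. With the mean over probe sets it called 2377 genes, 9 members lower and 4 higher, and 8 pathway genes lower. Among the brightest 0.25 of probe sets 11 members were lower and 4 higher. The threshold of 0.01 left 2720 probe sets called, 3 members higher and 3 pathway genes higher. With no filter 5 pathway genes were higher, and with array weights 14. Replicate numbers did not pair the arrays: same-numbered arrays had correlations of -0.0617 to 0.0824 between their deviations from the group means. With the replicate block 5 members were called higher and 20 lower. Leaving out each array in turn gave 4 to 8 members higher and 15 to 22 lower, 3774 to 5763 probe sets called, 4 to 10 pathway genes higher and 14 to 18 lower, and a Wt1 difference of -2.37 to -2.19.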
